A study of Mus musculus with 89 samples.

Results

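The Tcf/Lef family of DNA-binding factors and their partner β-catenin were followed through all RNA-seq groups of the series. Lef1, Tcf7, Tcf7l1, Tcf7l2 and Ctnnb1, the gene of β-catenin, were taken by their symbols and make up 5 of the 54146 mouse genes listed. The study addressed how Esrrb and Nr5a2, nuclear receptors with a shared DNA motif, act together in mouse embryonic stem cells (ESCs). EKOiE ESCs lack endogenous Esrrb in every group and carry an Esrrb transgene that doxycycline (Dox) induces, and in EKOiE NrKO ESCs the exon for the start of the Nr5a2 DNA-binding domain is also disrupted on both alleles. EKOiE cells given Dox at 1 µg/ml are called +E+N, and those cultured for 2 days without it −E, while EKOiE NrKO cells are called −N with Dox and −E−N without it. Each state was profiled in medium with foetal calf serum (FCS/LIF, 2 libraries per state) and in 2i/LIF (3 libraries per state), so that the 5 genes were read in 20 libraries. The 2i/LIF medium holds inhibitors of Mek and Gsk3 in a different base, with defined supplements and no serum listed. The media therefore differ in more than the inhibitors.

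The destruction complex, of which Gsk3 is a kinase, marks β-catenin for degradation, and Wnt signals or inhibition of Gsk3 let the protein accumulate and bind Tcf/Lef factors at their target genes. Tcf7l1 acts mainly as a repressor in mouse ESCs and restrains genes of naive pluripotency, and binding of β-catenin relieves this repression. Lef1 and Tcf7 are better known as activators with β-catenin, whereas Tcf7l2 can act either way. β-Catenin also links cadherins to the cytoskeleton at adherens junctions, and it is regulated largely through the stability of the protein, which RNA-seq does not measure.

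In the mm10 gene models of GENCODE vM21, Lef1 (ENSMUSG00000027985) lies on the plus strand at chr3:131110471-131224356, and Tcf7 (ENSMUSG00000000782) on the minus strand at chr11:52252371-52283014. Tcf7l1 (ENSMUSG00000055799) is on the minus strand at chr6:72626378-72789254. The plus strand holds both Tcf7l2 (ENSMUSG00000024985), at chr19:55741820-55933654, and Ctnnb1 (ENSMUSG00000006932), at chr9:120929216-120960507. Lef1 was the member whose transcript moved most, so the 250 bases before the most upstream of its 4 RefSeq starts are shown, as a view of its proximal promoter in GRCm38.p6 (the mm10 assembly), chr3:131110047-131110296, plus strand.
Lef1 promoter: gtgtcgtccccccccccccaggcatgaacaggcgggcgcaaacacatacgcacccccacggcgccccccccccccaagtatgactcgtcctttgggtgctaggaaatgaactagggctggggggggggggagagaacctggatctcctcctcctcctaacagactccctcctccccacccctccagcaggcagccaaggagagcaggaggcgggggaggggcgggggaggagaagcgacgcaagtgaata

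This window has a GC content of 66.4%, and the median of all RefSeq promoters of the same length was 52.4%. On both strands it was searched for the full motif shared by Esrrb and Nr5a2 (TCAAGGNCA), its core AAGGNCA, which lies within the full motif, and the Tcf/Lef site written as CTTTGAT or CTTTGAA. None of these runs of letters was found in it, nor before the other 3 Lef1 starts. Among 32851 RefSeq promoters, 1.39% held TCAAGGNCA, 17.5% AAGGNCA, 3.21% CTTTGAT and 4.46% CTTTGAA. All 5 genes had RefSeq promoters, 11 in all, and the only matches in them were to AAGGNCA before 2 starts of Tcf7, both on the strand opposite to the gene.

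The full motif was also searched from 10 kb before each gene's start to its end. Lef1 held 9 matches, 7.26 per 100 kb, below the 9.15 per 100 kb of the whole genome. The densities were 19.7 per 100 kb for Tcf7 (8 matches), 12.1 for Tcf7l1 (21 matches), 6.94 for Tcf7l2 (14 matches) and 12.1 for Ctnnb1 (5 matches). All of these densities, that of the genome included, count matches in annotated repeats and any base at N. Most Tcf7 matches lay in repeats, and most Ctnnb1 matches had G at N, so the densities do not rank the genes by likely sites. The lines that follow give the 4 Lef1 matches that lie in introns and outside annotated repeats, in the member that moved most. The match is in capitals and read on its own strand. The study found T or C at the base written N, and the last of these lines has A there. Other Lef1 matches, in an exon or in repeats, are not shown. The ChIP-seq of the series was not analysed here, and a match of letters is no evidence of binding.
Lef1 intron, chr3:131171734-131171762, minus strand: ttacccggggTCAAGGTCAgagaaatccc
Lef1 intron, chr3:131175537-131175565, minus strand: gagcaggctcTCAAGGTCAagtcaactcc
Lef1 intron, chr3:131205900-131205928, plus strand: tcttctctacTCAAGGCCAgccagttctt
Lef1 intron, chr3:131207622-131207650, minus strand: gactgggggcTCAAGGACAatgggggaca

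FCS/LIF libraries held 36514172 to 45443379 counts and those of 2i/LIF 26653035 to 32526534. In all 16 pairs of replicates the counts differed beyond sampling noise, with a chi-square of 4.28 to 28.3 for each degree of freedom. Mean Esrrb CPM (counts scaled to library size) fell from 311.9 in +E+N to 69.7 in −E and 30.1 in −E−N in FCS/LIF. In 2i/LIF it fell from 576.2 to 418.5 and 145.4. The Esrrb count does not separate the transgene from any transcript of the disrupted endogenous gene, and what remained without Dox was not traced to either. Nr5a2 CPM was 38.0 in +E+N and 26.4 in −N in FCS/LIF, and 70.9 and 68.9 in 2i/LIF; transcript from the disrupted alleles is included, so this count does not check the deletion. Markers of naive ESCs (7 genes, including Pou5f1, Sox2 and Nanog) summed to between 1163 and 2863 TPM (a level scaled to transcript length and library size) in every library, and none of them was at 0. The study describes the replicates as independent experiments, while the labels do not say what was separate between them, so p-values measure the spread between these libraries. Medium and culture batch cannot be told apart, nor can loss of Nr5a2 and the line derived to lack it. The comparisons of −E, −N and −E−N with +E+N share the +E+N libraries of their medium.

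Lef1 showed by far the widest range among the 5 genes, and most of it lay between the states of 2i/LIF. In that medium Lef1 was at its lowest in +E+N, at 0.35, 0.24 and 0.36 TPM in the 3 libraries. The −E libraries stood at 0.86, 1.1 and 1.63 TPM, those of −N at 3.61, 2.18 and 2.22 TPM, and those of −E−N at 9.49, 10.3 and 8.48 TPM. No 2 of these 4 states overlapped, and their order was +E+N, −E, −N, −E−N. The lowest state rested on 16 to 30 counts per library and the highest on 620 to 762, so the relative error of counting was larger at the low end.

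In FCS/LIF Lef1 was already abundant in +E+N, at 10.65 and 11.29 TPM. It reached 18.31 and 20.1 TPM in −E, was at 11.2 and 10.74 TPM in −N, and at 15.43 and 12.41 TPM in −E−N. Here −E was the highest state, above both −E−N libraries, while −N overlapped +E+N and −E−N lay above it. Over all 8 groups, the highest mean CPM of Lef1 was 58.3 times the lowest, and the same ratio was 2.15 for Tcf7, 1.57 for Tcf7l2 and 1.24 for Tcf7l1 and for Ctnnb1. Ordered by CPM, the Lef1 groups ran from the 4 states of 2i/LIF to the 4 of FCS/LIF, and only −E−N in 2i/LIF with −N in FCS/LIF, and −N with +E+N in FCS/LIF, were neighbours whose libraries overlapped. These are bulk libraries, in which more cells that transcribe Lef1 and more Lef1 RNA per cell cannot be told apart.

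**Figure D1:**
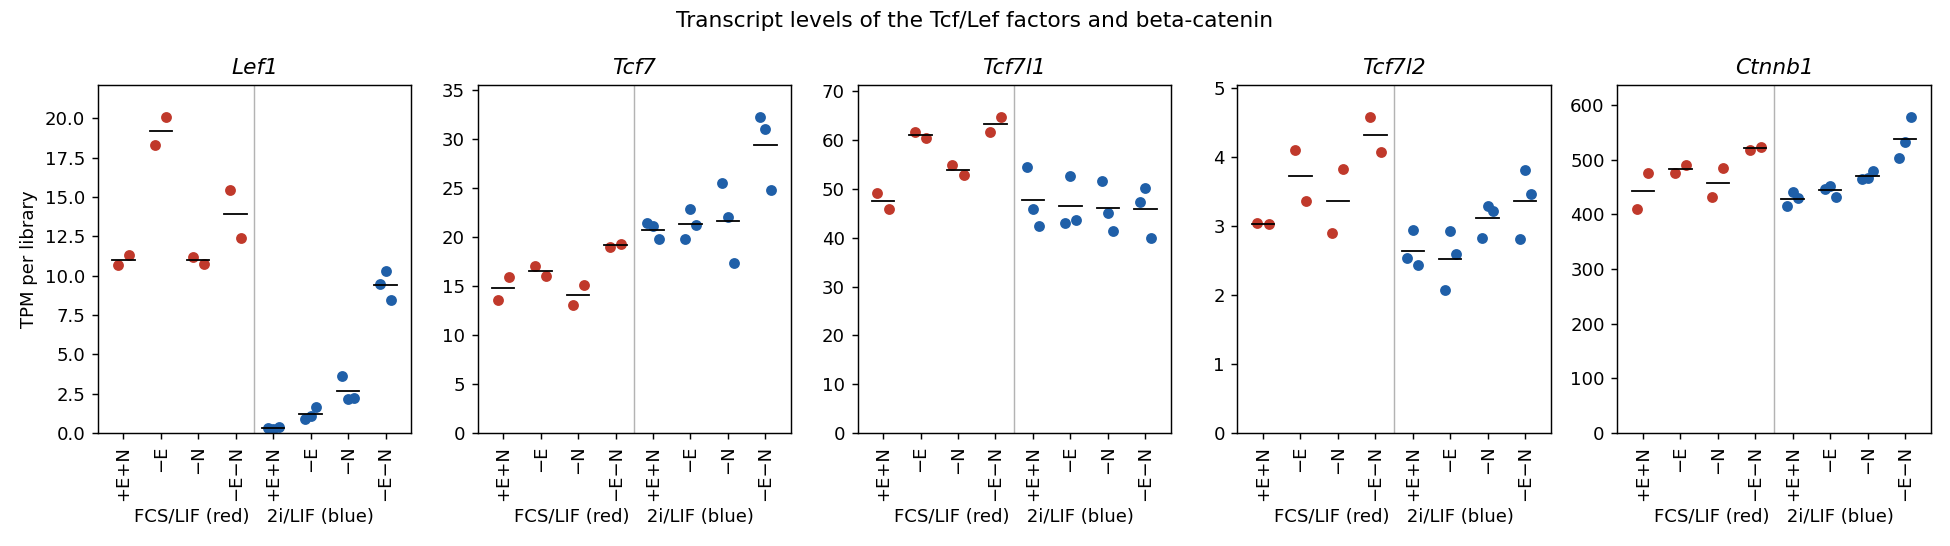
TPM of each gene in every library (points, linear axis from 0, a scale per gene) and the mean of each group (lines), for FCS/LIF in red and 2i/LIF in blue. Lef1 lies at 0.24 to 0.36 TPM in 2i/LIF +E+N and at 8.48 to 10.3 TPM in 2i/LIF −E−N, while the other genes vary far less between groups.

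In edgeR (quasi-likelihood test, Benjamini-Hochberg adjustment over all genes tested), Lef1 in 2i/LIF rose 4.07-fold in −E (log2 fold change 2.02, SE 0.31, adjusted p = 0.00266), in a comparison in which 1.55% of genes tested were called either way. It rose 8.97-fold in −N (log2 3.16, SE 0.30, adjusted p = 4.33e-05), where 3.65% of genes were called. In −E−N the rise was 32.7-fold (log2 5.03, SE 0.30, adjusted p = 1.98e-07), where 18.6% of genes were called, and 0.488% of genes tested had a larger change in either direction. Calls required an adjusted p below 0.01 together with a fold above 1.5. Lef1 was the only member of the 5 called in each of these 3 comparisons.

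The call in −E was the least secure of these 3. Lef1 missed the limit at an adjusted p of 0.0156 without +E+N replicate 2 or without +E+N replicate 3, 0.0117 without −E replicate 3 and 0.0319 by limma on log2(TPM + 1) values. In −N and −E−N it was called under all 19 alternatives, including each library left out. On the scale of log2(TPM + 1), which compresses low levels, the −E−N value was 2.98, against 4.90 to 5.27 with each library left out.

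Lef1 in −E−N was also compared with −N and with −E, and in 2i/LIF it was higher than in both. In 2i/LIF, −E−N exceeded −N by 1.87 on the log2 scale (SE 0.25, adjusted p = 0.000332 by the same test), with 6.76% of genes called. It exceeded −E by 3.01 (SE 0.26, adjusted p = 5.72e-06), with 13.1% of genes called. The interaction, the log2 response to −E−N less the summed log2 responses to −E and to −N, was -0.16 (SE 0.38, adjusted p = 0.904), less than its standard error. Its sign depended on the scale and the libraries, with -0.40 to 0.15 when each library was left out and 0.80 on log2(TPM + 1) values, and it was not called in any of these. The interaction was called, with no fold limit, for 0.307% of genes.

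In FCS/LIF, Lef1 rose 1.57-fold in −E (log2 0.65, SE 0.09, adjusted p = 0.00153 by edgeR), where 5.76% of genes were called. That call was lost without −E replicate 1 (adjusted p = 0.0128), without −E replicate 2 (adjusted p = 0.0256) and in one fit of all 20 libraries (adjusted p = 0.0677), although the value stayed between 0.62 and 0.80 on the log2 scale. The value was -0.06 in −N (SE 0.09, adjusted p = 0.814) and 0.18 in −E−N (SE 0.09, adjusted p = 0.137), with 0.173% and 18.8% of genes called. In these 2 comparisons 0 of the 5 members were called by edgeR, and 0 and 3 had an unadjusted p under 0.05. Against −N, −E−N differed by 0.24 (SE 0.09, adjusted p = 0.0736, not called, with 10.1% of genes called). Between −E−N and −E the difference was -0.47 (SE 0.09, adjusted p = 0.00739, with 5.05% of genes called), below the fold limit, and only without −E−N replicate 1 did it pass both limits, at -0.63. The interaction in FCS/LIF was -0.42 (SE 0.13, adjusted p = 0.358), with 0.032% of genes called.

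Between media, Lef1 was 36.1-fold lower in 2i/LIF than in FCS/LIF in +E+N (log2 -5.17, SE 0.27, adjusted p = 9.15e-11 by edgeR over all 20 libraries), in a comparison that called 34.7% of genes. The gap narrowed through the states, to a log2 difference of -3.82 in −E (SE 0.22, adjusted p = 3.12e-10) and -1.97 in −N (SE 0.21, adjusted p = 6.18e-07), with 38.8% and 31.6% of genes called. In −E−N the difference was -0.36 (SE 0.20, adjusted p = 0.136), with 35% of genes called, and Lef1 did not pass the limits.

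The difference of each response between media was tested directly. The change from +E+N to −E−N was larger in 2i/LIF than in FCS/LIF by 4.82 on the log2 scale (SE 0.35, adjusted p = 1.51e-07), where 13.2% of genes were called, with no fold limit. For −N the difference was 3.21 (SE 0.35, adjusted p = 8.71e-05), where 0.743% of genes were called. For −E it was 1.35 (SE 0.37, adjusted p = 0.0535), which missed the limit, with 1.06% of genes called. DESeq2 called that difference (adjusted p = 0.00688), as did the edgeR fit with no filter on low counts (adjusted p = 9.76e-06), whereas on log2(TPM + 1) values the difference was -0.03.

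**Figure D2:**
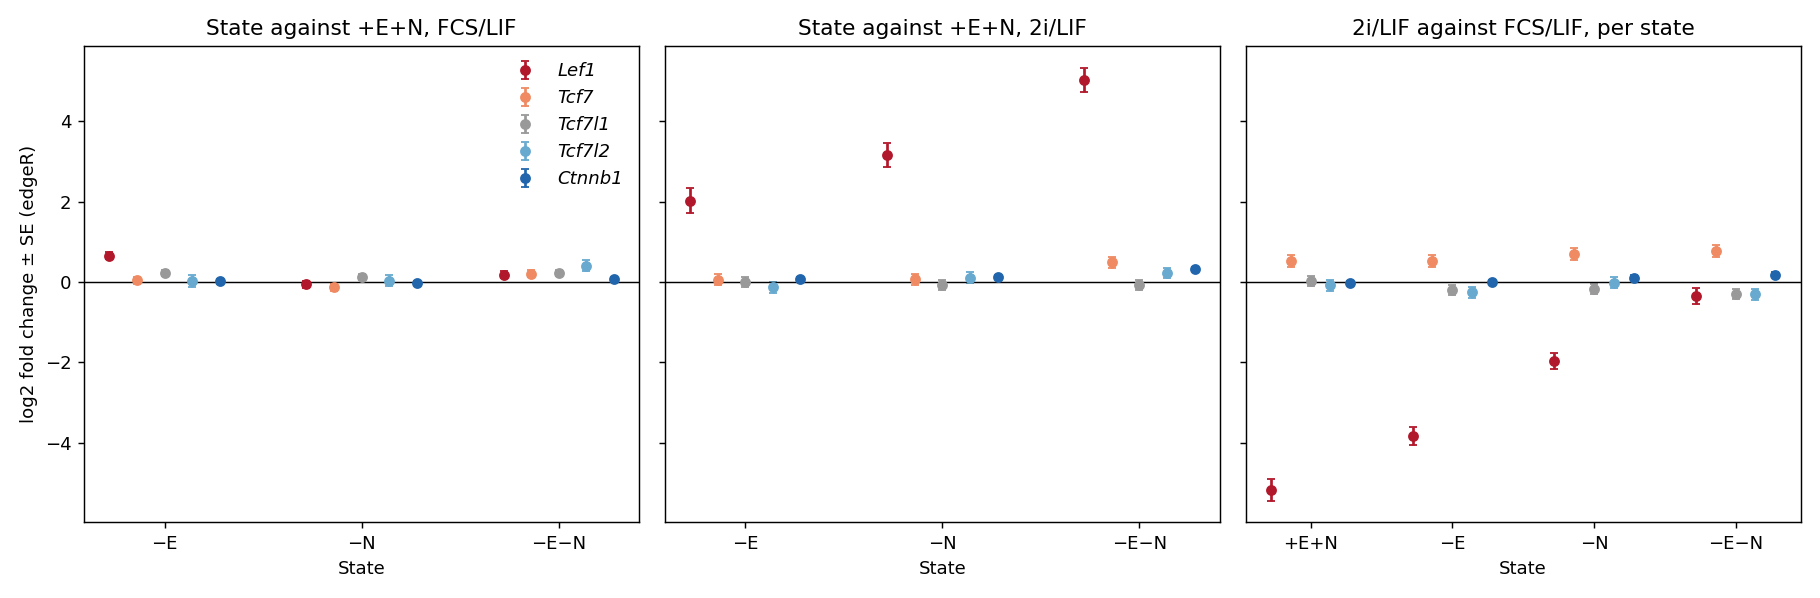
Fitted log2 fold changes (points) with their SE (bars) for the 5 genes, in each state against +E+N in FCS/LIF (left) and 2i/LIF (middle) and in 2i/LIF against FCS/LIF within each state (right). Lef1 stands apart from the other genes in 2i/LIF, reaching 5.03 in −E−N, and its deficit in 2i/LIF shrinks from -5.17 in +E+N to -0.36 in −E−N.

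An antisense gene, Gm43352 (ENSMUSG00000106086, minus strand, chr3:131109026-131112090), overlaps the start of Lef1, and it was looked up after its counts were seen. Within 2i/LIF, +E+N gave it 1, 0 and 2 counts, −E 5, 5 and 4, −N 19, 12 and 8, and −E−N 66, 103 and 78. In FCS/LIF they were between 75 and 133 in all 8 libraries. The 2i/LIF states thus stood in the same order as for Lef1 and did not overlap. Gm43352 was at least 27-fold higher in 2i/LIF −E−N than in +E+N when +E+N was set to a floor of 3 counts per library. Within 2i/LIF it met the filter of at least 20 counts in all replicates of 1 state only through −E−N. A test there would rest on the state that selected the gene, so only its counts and this bound are given. The libraries were made with a stranded kit, but the strand setting of the counting is not given in the sources used here, so reads of the overlap cannot be assigned with certainty to either gene.

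Among the marker lists, that of the formative and primed epiblast (6 genes) moved with Lef1 in part. In 2i/LIF its summed level ran from 43.1 to 47.3 TPM for +E+N, 46.2 to 57.6 for −E, 67.3 to 74.8 for −N and 86.0 to 101 for −E−N. In FCS/LIF the sums were 252 to 259 TPM for +E+N, 410 to 412 for −E, 289 to 302 for −N and 319 to 356 for −E−N. In 2i/LIF −E−N, 2 of its 5 tested genes were called higher, Dnmt3b and Sox3, and Otx2 was called lower, at no more than 2 counts in any −E−N library. Of all genes tested there, 9.06% were called higher and 9.56% lower. No gene of the list was at 0 in every library of a group. Markers of primitive endoderm summed to at most 4.42 TPM and those of fibroblasts to at most 2.65 TPM in 2i/LIF, with the fibroblast marker Dcn at 0 in +E+N, −E and −N. The sums were higher in FCS/LIF, at most 9.15 and 6.86 TPM. There, 4 of 5 fibroblast markers were called higher in −E−N (Col1a1, Col1a2, Col3a1 and Dcn), where 12.4% of all genes were. Their list summed to 5.16 to 5.61 TPM in +E+N and 5.38 to 6.01 in −E−N. The part of any of these cell types in the Lef1 values was not tested.

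Tcf7, the other member known mainly as an activator, changed little with the state and was somewhat higher in 2i/LIF. In FCS/LIF, +E+N stood at 13.63 and 15.91 TPM, −E at 17.02 and 16.02, −N at 13.07 and 15.1, and −E−N at 18.96 and 19.35. In 2i/LIF, +E+N stood at 21.4, 21.09 and 19.85 TPM, −E at 19.86, 22.92 and 21.2, −N at 25.53, 22.1 and 17.32, and −E−N at 32.31, 31.03 and 24.8. The −E−N libraries lay above those of +E+N in both media, and −E and −N overlapped +E+N in 2i/LIF.

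In 2i/LIF −E−N the log2 fold change of Tcf7 was 0.49 (SE 0.14, adjusted p = 0.0138 by edgeR) and in FCS/LIF −E−N it was 0.20 (SE 0.09, adjusted p = 0.0859), and neither passed the limits. Without −E−N replicate 3, the lowest of its group, the 2i/LIF value was 0.59 with an adjusted p of 0.00684 and was called. Against −N in 2i/LIF the difference was 0.43 (SE 0.14, adjusted p = 0.0488), and it was called at 0.60 (adjusted p = 0.00691) without −N replicate 1, the highest of that group. Between media Tcf7 was 1.62-fold higher in 2i/LIF in −N (log2 0.70, SE 0.14, adjusted p = 0.000565) and 1.71-fold higher in −E−N (log2 0.77, SE 0.14, adjusted p = 0.00019). The −N call was lost without FCS/LIF −N replicate 1 (adjusted p = 0.0124) and, through the fold limit, without 2i/LIF −N replicate 1 (log2 0.51). In +E+N and −E the difference was 0.52 in each (SE 0.14, adjusted p = 0.00488 and 0.00437), under the fold limit of 1.5.

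Tcf7l1, the repressor of naive genes, was the most abundant of the 4 Tcf/Lef transcripts in every library, at 40.0 to 64.8 TPM, and was called in none of the 19 comparisons. In 2i/LIF it was at 54.55, 45.96 and 42.47 TPM in +E+N and at 47.37, 50.29 and 39.97 TPM in −E−N, with a log2 fold change of -0.08 (SE 0.12, adjusted p = 0.621 by edgeR). In FCS/LIF, +E+N stood at 49.14 and 45.84 TPM, −E at 61.63 and 60.39, −N at 54.88 and 52.92, and −E−N at 61.65 and 64.83. The 3 states lay above +E+N in TPM without overlap, but the fitted log2 changes were between 0.12 and 0.23, with a lowest adjusted p of 0.0307. TPM and the scaling of the fit differed in FCS/LIF: on log2(TPM + 0.1) values the median change over all genes in −E−N was 0.16, against 0 in the fit, so part of the rise in TPM was also seen at the median gene.

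Tcf7l2 lay between 2.07 and 4.59 TPM and was the least abundant of the 4 in every library of FCS/LIF and of 2i/LIF −E−N. Its libraries in 2i/LIF were at 2.54, 2.95 and 2.44 TPM in +E+N and 2.81, 3.81 and 3.47 in −E−N, which overlap. In FCS/LIF they were at 3.04 and 3.03 TPM in +E+N and 4.59 and 4.07 in −E−N, which do not, and there the log2 fold change was 0.41 (SE 0.14, adjusted p = 0.0417 by edgeR), its largest against +E+N. No comparison called Tcf7l2.

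Ctnnb1 was transcribed at a high and nearly constant level, between 410.6 and 579.2 TPM in all 20 libraries. In 2i/LIF, +E+N stood at 416.27, 441.02 and 429.31 TPM, −E at 447.16, 452.87 and 432.36, −N at 464.37, 465.97 and 479.1, and −E−N at 504.19, 532.54 and 579.23. The −N and −E−N libraries lay above all of +E+N, and those of −E−N above all others in this medium. The change was nevertheless small: in −E−N the fold was 1.25 (log2 0.32, SE 0.05, adjusted p = 0.000377 by edgeR), past the limit on p and under the limit on fold, and it kept that side of both under all 19 alternatives. In FCS/LIF Ctnnb1 was at 410.6 and 476.85 TPM in +E+N and 517.83 and 524.05 in −E−N, with a log2 change of 0.07 (SE 0.06, adjusted p = 0.353). Between media its log2 differences lay between -0.03 and 0.18. Its 3′ end overlaps Ulk4, a gene on the opposite strand with 22 to 72 counts per library against 22020 to 39280 for Ctnnb1.

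The make-up of the Tcf/Lef transcripts followed from these levels. Tcf7l1 held 66.6% ± 2.23 (SD, n = 3) of the summed TPM of the 4 genes in 2i/LIF +E+N and 52.1% ± 0.60 (SD, n = 3) in −E−N, a difference of -14.5 percentage points (two-sided exact permutation test, p = 0.1, the smallest that 3 against 3 libraries can give). In FCS/LIF the shares were 62.3% ± 2.83 in +E+N and 62.8% ± 2.22 in −E−N (SD, n = 2 each), a difference of 0.57 points (exact permutation p = 0.667; the smallest possible is 0.333), whose sign changed with the libraries: it was -1.43 without +E+N replicate 2, also negative without −E−N replicate 2, and 2.57 without +E+N replicate 1. In +E+N the share was higher in 2i/LIF than in FCS/LIF by 4.35 points (exact permutation p = 0.1, again the smallest possible), but by 2.35 points without FCS/LIF +E+N replicate 2 and by 6.78 points when counts replaced TPM. The design cannot reach 0.05 in any of these tests.

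The 2i/LIF share of Lef1 was 0.446% for +E+N, 1.68% for −E, 3.59% for −N and 10.7% for −E−N, and it lay between 13.3% and 19.1% in the 4 FCS/LIF states. Tcf7 held 29.2% in 2i/LIF +E+N and 33.3% in −E−N. Tcf7l2 kept between 3.52% and 4.31% in all 8 groups. In 2i/LIF, therefore, the lower share of Tcf7l1 in −E−N came with more Lef1 and Tcf7 transcript and with a Tcf7l1 level that overlapped that of +E+N.

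**Figure D3:**
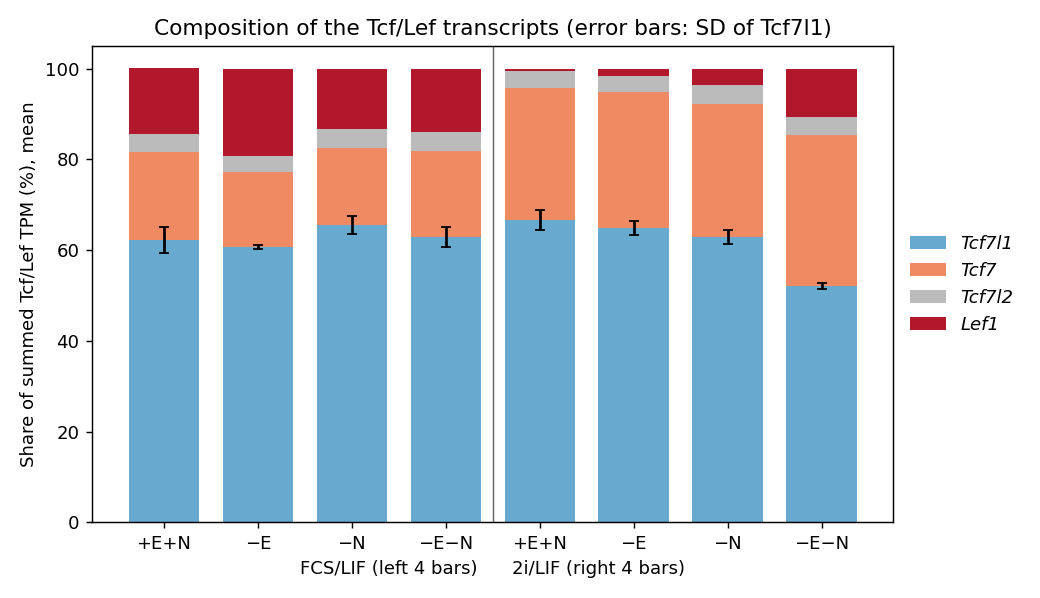
Mean share (%) of the summed TPM of the 4 Tcf/Lef genes held by each, per group, with the SD of the Tcf7l1 share as error bars (n = 2 in FCS/LIF, n = 3 in 2i/LIF). Lef1 is close to absent in 2i/LIF +E+N, at 0.446%, and reaches 10.7% in 2i/LIF −E−N as the share of Tcf7l1 drops from 66.6% to 52.1%.

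Of 19 cofactors of the Tcf/Lef-β-catenin complex, all tested, 2 were called higher in −E−N in each medium, and both times these were Bcl9l, an adaptor that binds β-catenin, and the Groucho co-repressor Tle3. Bcl9l changed by 1.10 on the log2 scale in FCS/LIF and 1.12 in 2i/LIF (SE 0.09 and 0.10, adjusted p = 3.25e-05 and 2.92e-06 by edgeR), and Tle3 by 0.67 and 0.59 (SE 0.13 and 0.11). The short Groucho-related protein Aes was called lower in both, by -1.98 and -2.41 (SE 0.09 and 0.18, adjusted p = 1.61e-06 and 9.23e-07), and in FCS/LIF so was Hipk2, a kinase that acts on Tcf/Lef factors. Between media in +E+N, Aes was 5.85-fold and the co-repressor Tle2 4.46-fold higher in 2i/LIF, and 5 cofactors were called lower, of which Tle4 had the largest change (log2 -1.18, SE 0.12). Tle2 was near the floor, at 16 to 25 counts per library in FCS/LIF +E+N and 46 to 78 in 2i/LIF +E+N (log2 SE 0.39). The median log2 change of the 19 genes was -0.01 in FCS/LIF −E−N and -0.08 in 2i/LIF −E−N, and over all genes tested it was 0 and 0.01. Of all genes tested, 18.8% were called either way in FCS/LIF −E−N, 18.6% in 2i/LIF −E−N and 34.7% between media in +E+N.

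Of 18 genes of the destruction complex and its regulators, Axin2, the scaffold that is itself a target of the pathway, was the only one called higher in −E−N in both media. In FCS/LIF Apc2 (log2 1.03, SE 0.20) and Dvl3 (log2 0.69, SE 0.12) were called higher too, and none was called lower. In 2i/LIF the kinase Csnk1e (log2 -1.72, SE 0.14, adjusted p = 1.69e-06 by edgeR) and the ubiquitin ligase subunit Btrc (log2 -0.63, SE 0.08) were called lower, among 17 tested. The medians were 0.09 and 0.08. The calls stand beside 18.8% of all genes called in FCS/LIF −E−N, 18.6% in 2i/LIF −E−N and 34.7% between media in +E+N. In +E+N, Apc2 was 16.3-fold lower in 2i/LIF than in FCS/LIF (log2 -4.03, SE 0.40), while Axin2, Btrc and Csnk1e were called higher.

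Partners of β-catenin at adherens junctions changed in both directions. Cdh2 (N-cadherin) was called higher in −E−N in FCS/LIF (log2 1.26, SE 0.11) and in 2i/LIF (log2 2.00, SE 0.35), and Cdh3 (P-cadherin) lower (log2 -1.62, SE 0.08, and -1.02, SE 0.27). Vcl, the linker to actin, was called higher in FCS/LIF (log2 1.16, SE 0.05). Jup (γ-catenin), which can take the place of β-catenin at junctions, was at 64.98 and 68.86 TPM in FCS/LIF +E+N and 90.9 and 103.6 in −E−N, a log2 change of 0.39 (SE 0.07) that stayed under the fold limit. In 2i/LIF Jup fell instead, from between 42.67 and 54.16 TPM to between 19.02 and 34.41 TPM (log2 -0.83, SE 0.17, adjusted p = 0.00204), and its response differed between media by -1.26 (SE 0.24, adjusted p = 0.00108 by edgeR). The medians of the list were 0.38 over 8 genes in FCS/LIF and -0.22 over 7 in 2i/LIF. Among all genes, 18.8% were called in FCS/LIF −E−N, 18.6% in 2i/LIF −E−N and 34.7% between media in +E+N. In +E+N, Cdh3 was 31.7-fold lower in 2i/LIF than in FCS/LIF (log2 -4.99, SE 0.20), Cdh2 was 4.95-fold lower, and Ctnna2 had at most 1 count per library in 2i/LIF.

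Most direct targets of Tcf/Lef and β-catenin, a list chosen with earlier results of these data known, rose in 2i/LIF −E−N. Of 15 tested, 11 were called higher and 0 lower in 2i/LIF −E−N, with a median log2 change of 1.37, against a median of 0.01 over all genes tested and 9.06% of genes called higher. They were Ascl2, Axin2, Cdx1, Cdx2, Dkk1, Lgr5, Nkd1, Sp5, T, Tnfrsf19 and Znrf3. In 2i/LIF −N, 4 were called higher (Cdx1, Dkk1, Lgr5 and Tnfrsf19, against 1.61% of all genes called higher), with a median of 0.64. None was called in 2i/LIF −E, where only 1.55% of all genes were called either way, and the median there was 0.51. In FCS/LIF −E−N, 6 were called higher (Axin2, Cdx1, Cdx2, Dkk1, Sp5 and T) and Ccnd1 and Notum lower, with a median of 1.03 and 12.4% of genes called higher. FCS/LIF −E, the state with the most Lef1, had Sp5 called higher and Ascl2 and Notum lower. Its median was 0.26, with 5.76% of genes called either way. A part of Lef1 in the target changes was not tested. T also stands in the list of primitive streak markers, whose summed level was 5.43 to 6.15 TPM in 2i/LIF +E+N and 5.26 to 11.3 in −E−N, with Eomes, another of its 5 genes, called lower there.

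Axin2 and Sp5, feedback targets that are read widely as reporters of β-catenin activity, were highest in −E−N in both media. In 2i/LIF the Axin2 libraries of +E+N spanned 15.55 to 25.97 TPM, those of −E 23.5 to 27.51, those of −N 21.83 to 43.35 and those of −E−N 58.01 to 63.71, so that only −E−N lay clear of +E+N. Those of Sp5 spanned 8.6 to 24.48 TPM for +E+N, 35.73 to 37.64 for −E, 21.66 to 52.38 for −N and 111.26 to 141.98 for −E−N. Their log2 changes in 2i/LIF −E−N were 1.64 for Axin2 (SE 0.24, adjusted p = 0.000152 by edgeR) and 3.05 for Sp5 (SE 0.38, adjusted p = 5.26e-05). In −E and −N of 2i/LIF neither was called (adjusted p between 0.0502 and 0.312).

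In FCS/LIF Axin2 was at 3.29 and 3.31 TPM in +E+N and 9.15 and 9.77 in −E−N, and Sp5 at 0.60 and 0.83 TPM and then 6.86 and 7.58. Both rose in −E−N (Axin2 log2 1.27, SE 0.16, adjusted p = 0.00031; Sp5 log2 3.17, SE 0.22, adjusted p = 1.26e-05), Sp5 also rose in −E (log2 1.72, SE 0.22, adjusted p = 0.00122), and neither was called in −N. Both exceeded −N in −E−N (Axin2 log2 1.25, Sp5 log2 3.23), and against −E Sp5 was called (log2 1.45) and Axin2 was not (log2 0.68, adjusted p = 0.0167). In 2i/LIF −E−N, Axin2 exceeded −E by 1.19 (adjusted p = 0.00211) and was not called against −N (log2 0.91, adjusted p = 0.0161), while Sp5 was called against both (log2 1.73 and 1.81).

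Unlike Lef1, these 2 targets had higher levels in 2i/LIF than in FCS/LIF in all 4 states, with log2 differences between 2.36 and 3.22 for Axin2 and between 4.00 and 5.72 for Sp5. No interaction was called for either gene in either medium, with values between 0.45 and 0.67 for Axin2 and between 0.49 and 1.51 for Sp5. Nor did their responses differ between media past the limit, with an adjusted p of 0.536 for Axin2 and 0.895 for Sp5 in −E−N. For Lef1 that difference was 4.82, as given above, whereas for Axin2 it was 0.34 (SE 0.36) and for Sp5 -0.16 (SE 0.65). The remaining targets named by size behaved unevenly. Lgr5, a receptor of R-spondins, had at most 3 counts per library in 2i/LIF +E+N and was at least 39.2-fold higher in −E−N against a floor of 3 counts per library. Cdx2 went from 0.38 to 1.41 TPM to between 22.87 and 30.63 TPM (log2 5.03, SE 0.58) and Dkk1, a secreted Wnt antagonist, from 0.26 to 0.71 TPM to between 5.45 and 7.13 TPM (log2 3.86, SE 0.43). Notum, which inactivates Wnt proteins, fell in FCS/LIF from 27.11 and 27.8 TPM to 2.26 and 2.64 TPM (log2 -3.58, SE 0.17) and was not called in 2i/LIF (log2 0.40, SE 0.22).

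Between media in +E+N the targets differed in both directions, as did genes at large, of which 49.6% of those called were higher in 2i/LIF. Cdx1 was 643-fold higher in 2i/LIF (log2 9.33, SE 0.24, adjusted p = 7.89e-14 by edgeR), from 0.08 and 0.16 TPM to between 71.24 and 94.01 TPM, and Sp5 was 21.5-fold higher. Ascl2, like Lef1, was far lower in 2i/LIF (log2 -4.48, SE 0.32, adjusted p = 5e-09), with 0.60 to 1.32 TPM against 23.33 and 24.12. It was also called higher in 2i/LIF −E−N (log2 2.81, SE 0.39), but at 5.6 to 10.64 TPM it was still below its FCS/LIF level of 24.88 and 26.78 TPM. Of the 15 targets, 4 were called higher and 2 lower, beside 34.7% of all genes, and their median was -0.09.

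**Figure D4:**
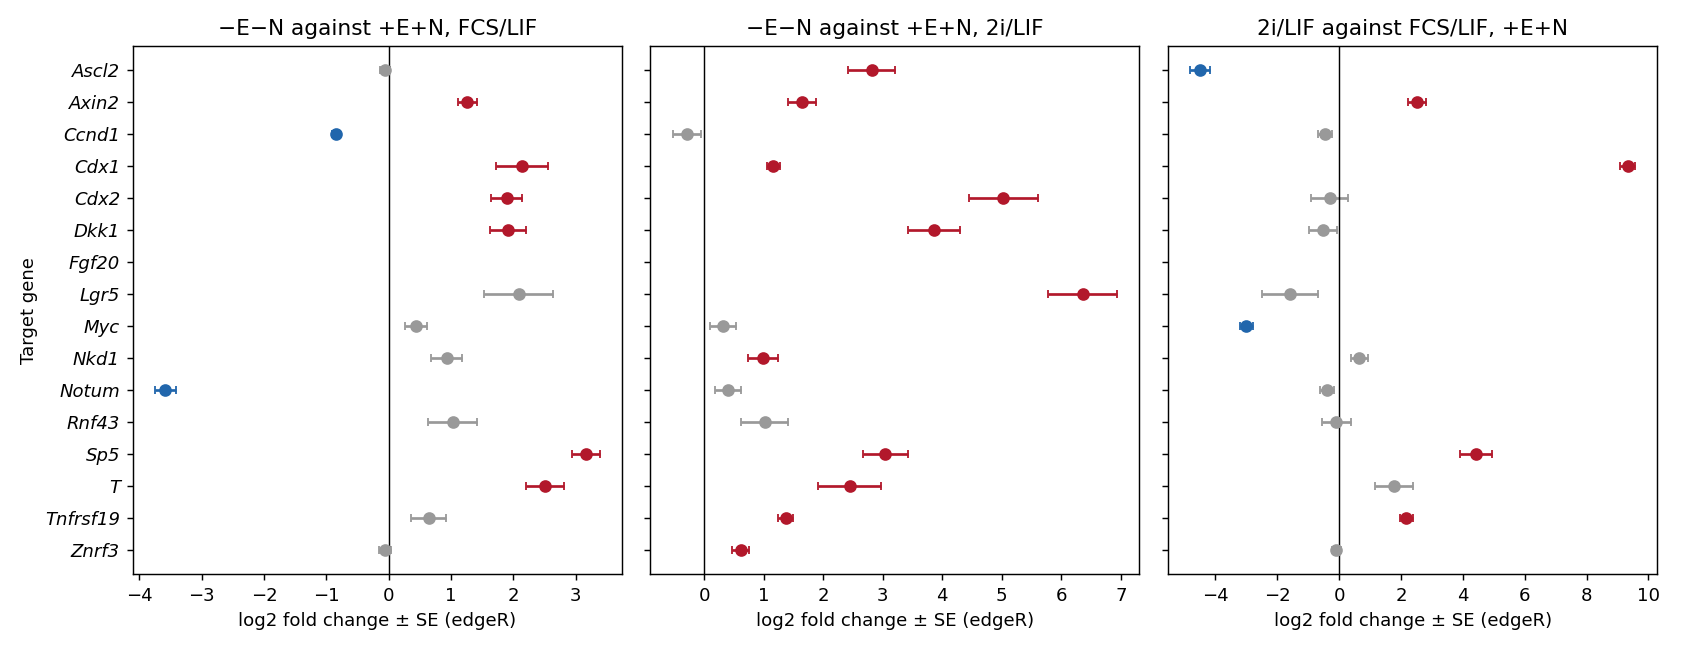
Fitted log2 fold changes (points) with their SE (bars) of the tested direct targets, with red for called higher, blue for called lower and grey for not called, and Fgf20 not tested. In 2i/LIF −E−N 11 of 15 are called higher and none lower, in FCS/LIF −E−N 6 are higher and 2 lower, and between media in +E+N 4 are higher and 2 lower.

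A list of 5 naive genes repressed by Tcf7l1, which leaves out Esrrb, held Nanog, Klf2, Tbx3, Nr0b1 and Tfcp2l1. These genes, chosen with earlier results of these data known, went down in −E−N, where Tcf7l1 was not called. Nanog, Klf2 and Tfcp2l1 also stand in the list of naive ESC markers, and a part of Tcf7l1 in the fall was not tested. All 5 were called lower in FCS/LIF −E−N (median log2 -2.20, against 6.4% of all genes called lower) and 4 of 5, without Klf2, in 2i/LIF −E−N (median -1.37, against 9.56%). Nr0b1 had the largest change, from 37.16 and 38.56 TPM to 0.71 and 0.73 TPM in FCS/LIF (log2 -5.88, SE 0.19) and from between 20.04 and 31.36 TPM to between 0.13 and 0.43 TPM in 2i/LIF (log2 -6.64, SE 0.45). Tfcp2l1 (log2 -2.30, SE 0.07) and Klf2 (log2 -2.20, SE 0.08) followed in FCS/LIF, and Tbx3 (log2 -1.54, SE 0.12) and Nanog (log2 -1.37, SE 0.10) in 2i/LIF. In +E+N, 4 of the 5 were called higher in 2i/LIF than in FCS/LIF, beside 34.7% of all genes called either way. Among them were Tfcp2l1 (5.85-fold), Tbx3 (3.87-fold) and Nanog (3.50-fold), at a Tcf7l1 level that differed by 0.03 on the log2 scale (SE 0.13).

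As a description of patterns, the mean log2 CPM of each member over the 8 groups was correlated with that of 11737 genes that averaged 100 counts or more. These 8 points come from the same 20 libraries and share their depth and scaling, and the genes named are the top 3 of a long list. Closest to Lef1 were Polr3e, a subunit of RNA polymerase III (Pearson r = 0.9963), Plch1, a phospholipase C (r = 0.9926), and Wdr55 (r = 0.9926). For Tcf7 they were Hmga2, a chromatin protein (r = 0.9903), Ip6k1, an inositol phosphate kinase (r = 0.990), and Mdk, a growth factor (r = 0.9872). Tcf7l1 was nearest to Adamts7 (r = 0.9754), Gnai1 (r = 0.9627) and Sptb (r = 0.9614), Tcf7l2 to Snrk (r = 0.989), Dio3 (r = 0.9685) and Sidt2 (r = 0.9588), and Ctnnb1 to the cohesin loader subunit Mau2 (r = 0.996), Uhrf2 (r = 0.9849) and Slc35b4 (r = 0.9792). Among the members themselves, r was highest for Tcf7 with Ctnnb1 (0.711) and lowest for Tcf7 with Tcf7l1 (-0.66), and Lef1 had an r of -0.449 with Tcf7.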

How the data were processed

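RNA-seq of 20 libraries in 8 groups was used. Per the labels, stranded poly-A libraries were aligned to mm10 and quantified with STAR and RSEM. The authors deposited RSEM expected counts, not normalized, and TPM values, which are scaled per length and per library. The TPM values served for levels and shares. Counts were rounded and fitted with edgeR 4.0.16 (R 4.3.3; TMM, quasi-likelihood test, Benjamini-Hochberg adjustment over all genes tested), by medium for states (15636 genes in FCS/LIF, 14355 in 2i/LIF) and over all 20 libraries for media (16147 genes). Genes needed at least 20 counts in all replicates of 1 group. Calls needed an adjusted p under 0.01 and a fold over 1.5, and interactions and differences of responses only the first. The 92 spike-in rows held 0 counts and were left out. Gene models were from GENCODE vM21, in which 54079 of 54146 IDs were found, and promoters from RefSeq (GRCm38.p6).

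At these depths a gene at 20 counts has a large counting error, and a fold against at most 3 counts is a lower bound. Members and lists were chosen with earlier results of these data known. Named genes were the members, the targeted genes, the 3 nearest patterns per member, Axin2, Sp5, Jup and, per list, the 3 called genes with the largest change in −E−N of each medium and between media; others named were seen first. Alternatives were DESeq2 1.42.0, its size factors, no filter, limma 3.58.1 with TPM taken to the log2 scale after adding 1 or 0.1, the replicate number as a block, all 20 libraries in one fit, and each library left out.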

Additional observations from a re-analysis of the deposited data

Results flagged for a closer look

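Differences of a response between media passed the test for one member only. For Lef1, the log2 response to −E−N was higher in 2i/LIF than in FCS/LIF by 4.82 (SE 0.35, adjusted p = 1.51e-07), and the response to −N by 3.21 (SE 0.35, adjusted p = 8.71e-05), both by an interaction term in edgeR's fit of all 20 libraries. Within media the responses were 5.03 and 3.16 in 2i/LIF and 0.18 and -0.06 in FCS/LIF. All 3 libraries of each of these 2i/LIF states lay above all 3 of +E+N, while in FCS/LIF the −N libraries overlapped those of +E+N. Groups of 2 or 3 libraries were too small to be searched for outlying samples.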

How the results depend on the processing

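Of 292 values of members called above, recomputed under the alternatives, 281 were called again in the same direction, 11 were no longer called and 0 reversed. Of 1638 values not called, 7 became called, and 81 changed sign while staying uncalled. The number of the 5 members called was 0 in place of 1 for −E in FCS/LIF in one fit of all 20 libraries and for −E in 2i/LIF by limma on log2(TPM + 1) values, by which it was also 1 in place of 2 for 2i/LIF against FCS/LIF in −N and 0 in place of 1 in −E−N. For the response to −E between media it was 1 in place of 0 by DESeq2 and with no filter. With each library left out in turn it lay between 0 and 1 for −E in FCS/LIF, −E in 2i/LIF and −E−N against −E in FCS/LIF, and between 1 and 2 for −E−N against +E+N and against −N in 2i/LIF and for the media in −N. The causes were not tested. The labels do not establish the replicate number as a pairing, and the main fits left it out. Same-numbered libraries nevertheless deviated together in most pairs. Their r was between 0.0921 and 0.485 in FCS/LIF (mean 0.211, 12 pairs, 10 over 0.1) and between -0.00273 and 0.632 in 2i/LIF (mean 0.375, 18 pairs, 17 over 0.1). With the number as a replicate block, 2 members in place of 1 were called between media in +E+N and in −E, Tcf7 joining Lef1, and no other call of a member changed. Over all genes, that block raised the number called in −E against +E+N from 901 to 1296 in FCS/LIF and from 223 to 596 in 2i/LIF. Scaling by TPM moved the median of all genes by up to 0.168 on the log2 scale. The counts of list genes called stayed within 1.5-fold. With each library left out, the difference in the Tcf7l1 share was -1.43 to 2.57 points for −E−N in FCS/LIF, -15.2 to -13.2 in 2i/LIF and 2.35 to 6.35 between media in +E+N. With counts in place of TPM these differences were 0.20, -15.9 and 6.78 points. With 2 libraries per state in FCS/LIF, leaving one out assumes that the other varies like the rest.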
